A study of Mus musculus with 2 samples.

Results

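The Wnt signalling genes of the newborn mouse cortex were followed here across cell classes and across 2 single-cell libraries. The members were the genes whose symbol is that of a Wnt ligand, a frizzled receptor (Fzd), a secreted frizzled-related protein (Sfrp), a dickkopf (Dkk) or an R-spondin (Rspo), together with Lef1, Axin2, Tcf7l1, Tcf7l2, Lrp5, Lrp6, Wif1 and Nkd1. There were 49 of them among the 27998 genes of the files: 19 ligands, 4 R-spondins, 9 secreted inhibitors, 10 receptors, 2 co-receptors, 3 transcription factors and 2 feedback targets.

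Telencephalic tissue of C57BL/6 mice was taken at P0, the day of birth (postnatal day 0). One library came from mice labelled wild-type (WT) and 1 from STINGf/f;Nestin-Cre mice (cKO). In the latter Cre, driven by the Nestin promoter in neural progenitors, deletes the innate immune adaptor STING (gene symbol Tmem173) in the neural lineage. Vascular and blood cells are of other origin. The paper on these data names the control both WT and STINGfl/fl. By the labels only the cKO mice carried Cre, so its presence and the deletion cannot be told apart. With 1 library per genotype every difference below compares 2 libraries, has no replicate check and carries no p-value, and the intervals given (exact, 95%) cover counting error only. Levels are given as CPM, the UMIs (counted molecules) of a gene scaled by all UMIs of its class.

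Wnt ligands are secreted lipid-modified proteins that bind frizzled receptors and the Lrp5 or Lrp6 co-receptor. The complex halts the degradation of β-catenin, which then enters the nucleus and acts with Tcf/Lef transcription factors. Sfrp, Wif1 and most Dkk proteins are classed as extracellular inhibitors, R-spondins keep the receptors at the membrane, and Axin2 and Nkd1 are transcriptional targets that damp the signal. In the developing forebrain Wnt signals pattern the dorsal midline, act on radial glia and guide growing axons, and Wnt7a and Wnt7b from neural cells drive the growth and barrier properties of brain vessels.

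After filters 6566 WT and 5929 cKO cells were kept, with median depths of 6537 and 7515 UMIs per cell, and 8 kept barcodes occurred in both libraries. Of 34 clusters, 30 could be named from marker genes. They gave 13 classes in which levels were put in order, and 12 with at least 20 cells in each library in which ratios were formed. Ependymal-like cells (44 in WT and 12 in cKO) were too few for a ratio, and blood-cell classes were not ordered because the 16 WT granulocyte-like cells had a median of 56953 UMIs and held UMIs of endothelial-high members such as Nkd1 (187) and Lef1 (99). A cluster of pericyte and blood genes (55 WT and 11 cKO cells) stayed unnamed. So did those led by Mcm3 and Uhrf1 (130 and 76), Fam19a1 and Fxyd7 (257 and 218) and Foxp2 and Pbx3 (189 and 131). The cycling progenitor-like class was a single cluster led by Ube2c and Cenpf, without the Mcm3-led cells. The migrating newborn projection neuron-like class included a cluster led by Eomes and Sstr2, which are markers of intermediate progenitors. Its leading genes also held Rnd2, Unc5d and Sema3c, markers of migrating newborn neurons. The class may therefore hold cells of both kinds. The cKO library held 70388 UMIs of Xist and 6 of Y-linked genes, against 10 and 9701 in the WT library, so genotype and sex cannot be told apart. Tmem173 had 126 UMIs in WT and 18 in cKO, chiefly in cells outside the neural lineage or left unnamed. In endothelial-like cells it had 47 and 10, a log2 ratio of CPM (cKO over WT) of -1.25 with an interval below 0. In microglia-like cells, which like vessels lie outside the neural lineage, it had 22 and 3, and in unnamed cells 23 and 2. In radial glia/astrocyte-like cells it had 9 and 1, and in cycling progenitor-like cells 6 and 0. The total therefore cannot check the deletion in the neural lineage, where counts were this low. The cause of the lower level outside that lineage was not tested.

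Of the 49 members, 28 reached 100 UMIs over the kept cells. The 21 others were rare. Wnt8a and Wnt10b had 0 UMIs. A count of 0 was taken to allow up to 3 UMIs, which in WT is 0.0541 CPM and in cKO 0.0552 CPM, and the exact 95% upper limits, two-sided, are 0.0666 and 0.0679 CPM. Dkk4 had 1 UMI, Rspo4 and Wnt9b 3 each, Wnt16 4, Wnt2b and Wnt3a 5 each, Wnt1 9, Wnt6 12, Dkk1 13, Wnt10a 17, Wnt11 22, Wnt2 31, Fzd10 47, Wnt8b 49, Wif1 68, Dkk2 69, Wnt9a 70, Fzd5 87 and Sfrp4 95. Of the 19 ligands, therefore, 6 were measured at a usable depth: Wnt3, Wnt4, Wnt5a, Wnt5b, Wnt7a and Wnt7b. Wnt8b, which marks the hem-side cortical midline, had 26 of its 49 UMIs in cycling progenitor-like cells (19 in WT and 7 in cKO).

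**Figure D1:**
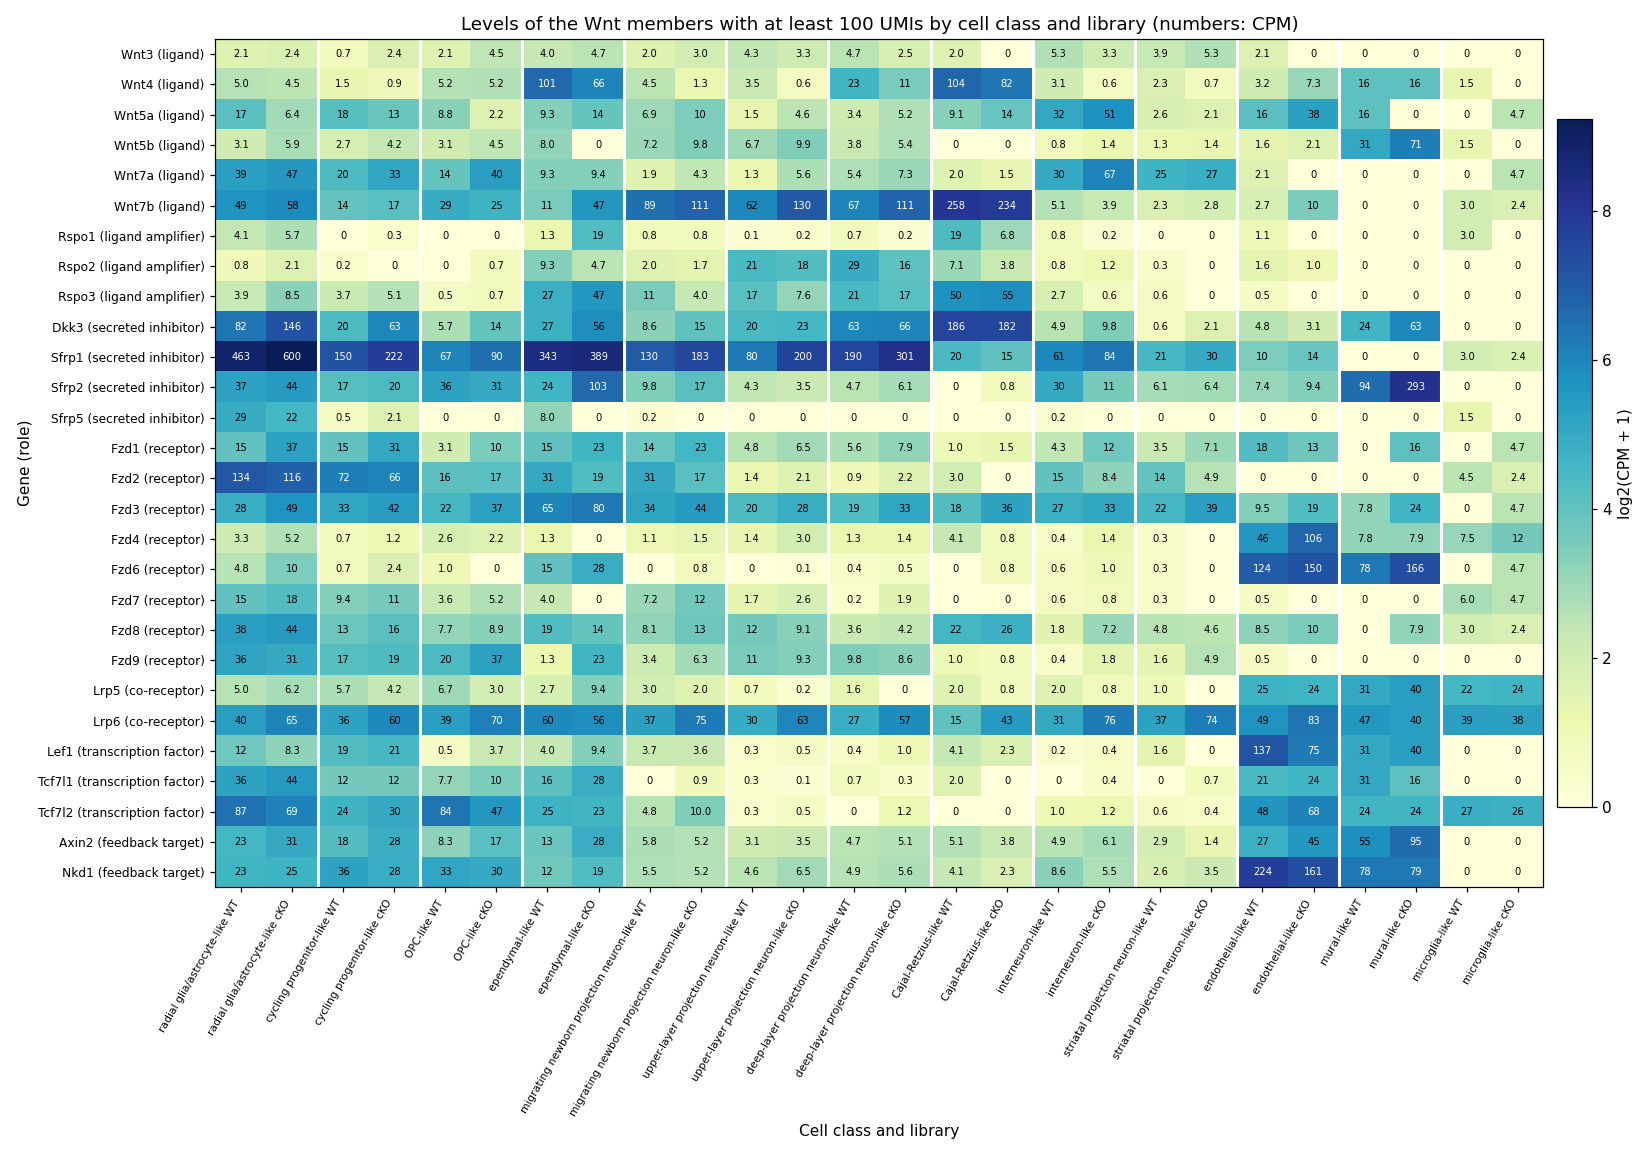
CPM of the 28 members with at least 100 UMIs in the 13 ordered classes, WT and cKO side by side; colour is log2(CPM + 1) and the numbers are CPM. Compare along a row only, since levels of different genes are not corrected for capture. Fzd4, Fzd6, Lef1 and Nkd1 were high in vascular classes, Sfrp1, Fzd2 and Sfrp5 in radial glia/astrocyte-like cells, and Wnt7b, Wnt4, Dkk3 and Rspo3 in Cajal-Retzius-like cells.

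For 20 of these 28 members the class with the highest level was the same in WT and cKO. It was radial glia/astrocyte-like for 7 (Fzd2, Fzd7, Fzd8, Sfrp1, Sfrp5, Tcf7l1 and Tcf7l2), Cajal-Retzius-like for 4 (Wnt4, Wnt7b, Rspo3 and Dkk3), mural-like for 4 (Wnt5b, Sfrp2, Lrp5 and Axin2), endothelial-like for 3 (Fzd4, Lef1 and Nkd1), interneuron-like for Wnt5a and ependymal-like for Fzd3. The other 8 were Wnt3, Wnt7a, Rspo1, Rspo2, Fzd1, Fzd6, Fzd9 and Lrp6. Among the 20, the highest class's interval lay above that of the second class in both libraries only for Fzd2, Sfrp1, Sfrp2, Sfrp5, Dkk3 and Wnt7b. In mural-like cells Lrp5 rested on 4 UMIs in WT and 5 in cKO, and Axin2 on 7 and 12. Ratios between the libraries were formed only where a member had at least 50 UMIs in the class. Over the 7 classes with at least 200 cells in each library this gave 109 member and class pairs. Of these, 19 (17.4%) were past 2-fold higher in cKO, where 4.05% of all gene and class pairs were, and 7 (6.42%) were past 2-fold lower, where 12.7% of all pairs were. The same gene can count in several classes, so the pairs are not independent. Lrp6 was among the higher ones in upper-layer-, migrating newborn-, interneuron-, deep-layer- and striatal projection neuron-like cells. Wnt7a and Fzd1 were also among them in several classes each. Median ratios of the members were above the median of all genes in each of the 10 classes where 5 or more were compared, as the plot of list medians shows. With other processing the members' median fell to -0.043 in deep-layer-like cells (classes from marker scores). In migrating newborn-like cells it fell to -0.05 (4 members, stricter cell filter).

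**Figure D2:**
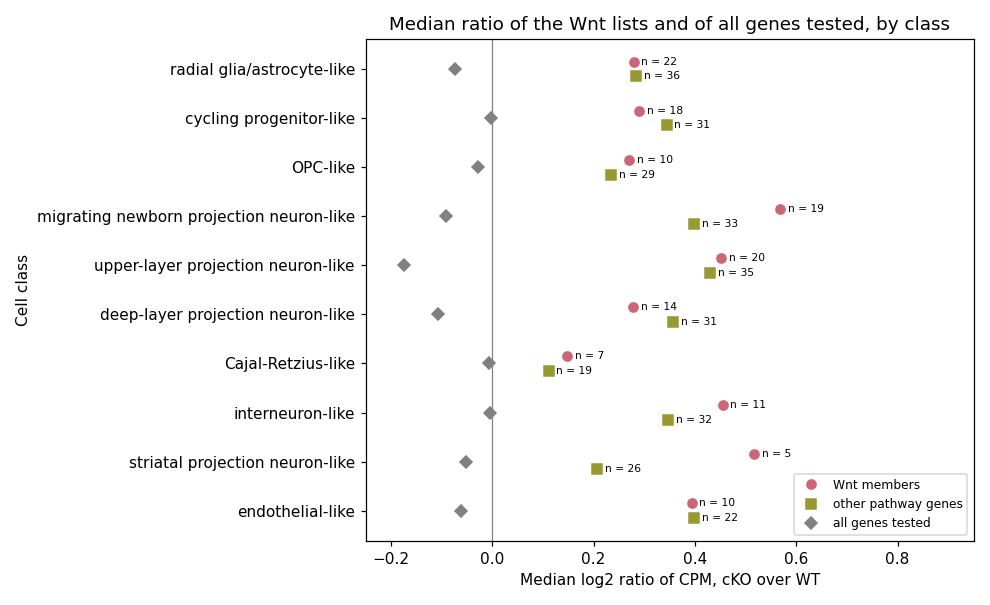
Median log2 ratio of CPM (cKO over WT) of the Wnt members (circles), of 51 other pathway genes (squares) and of all genes tested (diamonds) in 10 classes; n is the number of list genes tested. The members' medians run from 0.15 in Cajal-Retzius-like to 0.57 in migrating newborn projection neuron-like cells, and those of all genes from -0.17 to -0.003.

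Among the ligands, Wnt7a and Wnt4 gave the widest differences between the libraries, in opposite directions and in the same neurons. Fzd4 and Lef1, a receptor and a transcription factor, likewise differed in opposite directions in endothelial-like cells. The 250 bases before the RefSeq start of these 4 genes, 5′ to 3′ on the gene's strand, are printed for this reason (RefSeq, build GRCm38.p6). They are chr6:91411354-91411603 on the minus strand for Wnt7a, and chr4:137277385-137277634, chr7:89404116-89404365 and chr3:131110073-131110322 on the plus strand for Wnt4, Fzd4 and Lef1. The gene positions given with the results are those of GENCODE, whose start lies 10 bases upstream of the RefSeq start for Wnt7a, 146 for Wnt4 and 11 for Fzd4, thus inside the window, and 148 bases downstream of it for Lef1. Lef1 has 4 RefSeq windows, of which the one nearest the GENCODE start is shown. Capitals mark matches, on either strand, to the GC box GGGCGG, and neighbouring matches run together. The core of the Tcf/Lef site, CTTTGAT, was searched as well.
Wnt7a: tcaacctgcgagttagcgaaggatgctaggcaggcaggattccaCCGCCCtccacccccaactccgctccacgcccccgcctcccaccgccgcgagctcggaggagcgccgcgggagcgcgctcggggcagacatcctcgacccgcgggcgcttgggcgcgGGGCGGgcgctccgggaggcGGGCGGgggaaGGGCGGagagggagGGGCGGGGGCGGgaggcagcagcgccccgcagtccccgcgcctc
Wnt4: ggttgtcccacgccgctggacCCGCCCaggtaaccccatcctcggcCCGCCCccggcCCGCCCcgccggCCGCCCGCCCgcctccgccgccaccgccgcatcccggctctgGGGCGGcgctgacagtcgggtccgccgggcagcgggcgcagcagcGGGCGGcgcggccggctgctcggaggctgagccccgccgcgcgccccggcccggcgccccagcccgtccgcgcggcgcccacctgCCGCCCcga
Fzd4: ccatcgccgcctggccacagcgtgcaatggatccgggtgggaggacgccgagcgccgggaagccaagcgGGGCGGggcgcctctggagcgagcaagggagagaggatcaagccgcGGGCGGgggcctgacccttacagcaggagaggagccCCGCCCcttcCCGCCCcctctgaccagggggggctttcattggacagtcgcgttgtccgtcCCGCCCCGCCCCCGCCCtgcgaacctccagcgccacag
Lef1: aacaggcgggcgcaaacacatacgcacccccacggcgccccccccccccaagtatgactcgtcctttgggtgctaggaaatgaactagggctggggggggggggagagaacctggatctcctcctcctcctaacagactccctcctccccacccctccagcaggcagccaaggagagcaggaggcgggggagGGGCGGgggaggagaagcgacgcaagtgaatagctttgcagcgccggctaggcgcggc
The Wnt7a window held 6 GC box matches, that of Wnt4 8, that of Fzd4 7 and that of Lef1 1. The Tcf/Lef core had no match in any of the 4, and the letters were found in 3.21% of the 32851 windows of this length and in 2 of the 40 windows of the 33 members that have one. GC boxes were in 32.7% of all windows and in 28 of the members' 40. A match is a description of the letters only.

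Wnt7a (chr6:91363981-91411363) had its UMIs chiefly in radial glia/astrocyte-like, interneuron-like, cycling progenitor-like and striatal projection neuron-like cells. Its level was 38.7 CPM in WT and 47.1 in cKO radial glia/astrocyte-like cells, 29.8 and 66.8 in interneuron-like cells, 24.8 and 26.8 in striatal projection neuron-like cells, 19.99 and 33.1 in cycling progenitor-like cells, and 13.9 and 40.2 in cells like oligodendrocyte precursors (OPC-like). In neurons of the projection lineage it was low, with 5.37 and 7.27 CPM in deep-layer, 1.87 and 4.33 in migrating newborn and 1.30 and 5.64 in upper-layer projection neuron-like cells. The cKO value was the higher one in 8 of 8 classes compared, and the interval of the log2 ratio lay above 0 in 5. In upper-layer projection neuron-like cells the log2 ratio was 2.12 (1.36 to 2.95), from 18 UMIs in WT and 76 in cKO. It was 1.53 (0.84 to 2.25) in OPC-like, 1.21 (0.26 to 2.26) in migrating newborn-like and 1.17 (0.88 to 1.46) in interneuron-like cells. It dropped below 2-fold, with an interval that held 0, in OPC-like cells under a stricter cell filter (0.50) and in migrating newborn-like cells without doublet removal (0.33), with automatic doublet thresholds (0.59), at clustering resolution 2 (0.81) and when each library was clustered alone (0.83). The largest interneuron-like cluster differed between the libraries, being led by Dlx6os1 and Sp8 in WT and by Maf and Lhx6 in cKO. Within these 2 clusters the ratio was 1.09 (0.59 to 1.60) and 0.90 (0.38 to 1.44), and in the cluster led by Npas1 and Adarb2 it was 1.46 (0.89 to 2.05). After thinning each cell to 1000 UMIs, a Wnt7a UMI was found in 2.42% (1.55 to 3.57) of WT and 7.01% (5.41 to 8.89) of cKO interneuron-like cells, while microglia-like cells, which should lack the gene, held it in 0 of 52 cells in WT and 0 of 27 in cKO (upper limits 6.85% and 12.8%).

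Wnt7b (chr15:85535437-85582473) had its high levels in neurons of the cortical projection lineage and at the cortical surface. Cajal-Retzius-like cells, the reelin-producing neurons of the cortical surface, had 258 CPM (228 to 292) in WT and 234 (208 to 261) in cKO, above each of the other classes. Migrating newborn-like cells had 89.3 and 111 CPM, deep-layer-like cells 66.9 and 111, upper-layer-like cells 62.1 and 130, and radial glia/astrocyte-like cells 49.4 and 58.4. OPC-like cells had 29.4 and 24.6 CPM and cycling progenitor-like cells 14.3 and 16.7. Interneuron-like and striatal projection neuron-like cells had at most 5.10 CPM in either library. The log2 ratio was 1.07 (0.95 to 1.19) in upper-layer-like and 0.73 (0.53 to 0.93) in deep-layer-like cells, and in Cajal-Retzius-like cells it was -0.15 (-0.39 to 0.10). Each of the 3 upper-layer-like clusters had the higher value in cKO, with log2 ratios of 1.48, 1.02 and 0.84. A gene on the opposite strand, AU022754, overlaps exons of Wnt7b.

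Wnt4 (chr4:137277489-137299726) was highest in Cajal-Retzius-like cells, at 104 CPM in WT and 82.1 in cKO, and next in ependymal-like cells, at 101 and 65.5. These neighbours did not differ beyond their counting intervals. Deep-layer-like cells had 23.0 CPM in WT and 10.7 in cKO, a log2 ratio of -1.11 (-1.59 to -0.65), with 58 and 32 UMIs in one cluster and 45 and 31 in the other. Upper-layer-like cells had 3.54 CPM (49 UMIs) in WT and 0.59 CPM (8 UMIs) in cKO, a log2 ratio of -2.57 (-3.86 to -1.48). The upper-layer-like UMIs came chiefly from the cluster led by Nwd2 and Nrgn, with 32 in WT and 5 in cKO. The ratio shrank to -0.38 (-1.05 to 0.29) when genes were scaled over both libraries together and to -0.54 (-1.24 to 0.15) when each library was clustered alone. The Wnt4 level was thus lower in cKO in the 3 classes compared, and in Cajal-Retzius-like cells the interval (-0.75 to 0.06) held 0.

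Wnt5a (chr14:28504750-28527448), a ligand mostly of β-catenin-independent signalling, was highest in interneuron-like cells, at 31.6 CPM in WT and 51.0 in cKO, with a log2 ratio of 0.69 (0.40 to 0.99). Most of these UMIs (90 in WT and 180 in cKO) were in the cluster led by Npas1 and Adarb2. That cluster held 253 of the 1016 WT and 328 of the 918 cKO interneuron-like cells. The ratio was 1.60 (0.87 to 2.39) in upper-layer-like cells, from 1.52 to 4.60 CPM, and 1.20 (0.46 to 1.94) in endothelial-like cells, from 16.4 to 37.7 CPM. Without the cells above 4 times the median UMIs the endothelial value was 0.30 (-0.83 to 1.41). In radial glia/astrocyte-like cells it pointed the other way, at -1.37 (-2.06 to -0.73), from 16.5 CPM in WT to 6.39 in cKO, and -0.59 (-1.53 to 0.24) when each library was clustered alone. Both clusters of that class had the lower value in cKO, with 52 and 12 UMIs in the cluster led by Aqp4, the larger in WT, and 28 and 15 in that led by Aldoc, the larger in cKO. Wnt5b reached its highest level in mural-like cells, the pericytes and smooth muscle of vessels, on 4 UMIs in WT and 9 in cKO, and was at 6.71 and 9.88 CPM in upper-layer-like cells. Wnt3 lay between 0 and 5.30 CPM in each class of both libraries.

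**Figure D3:**
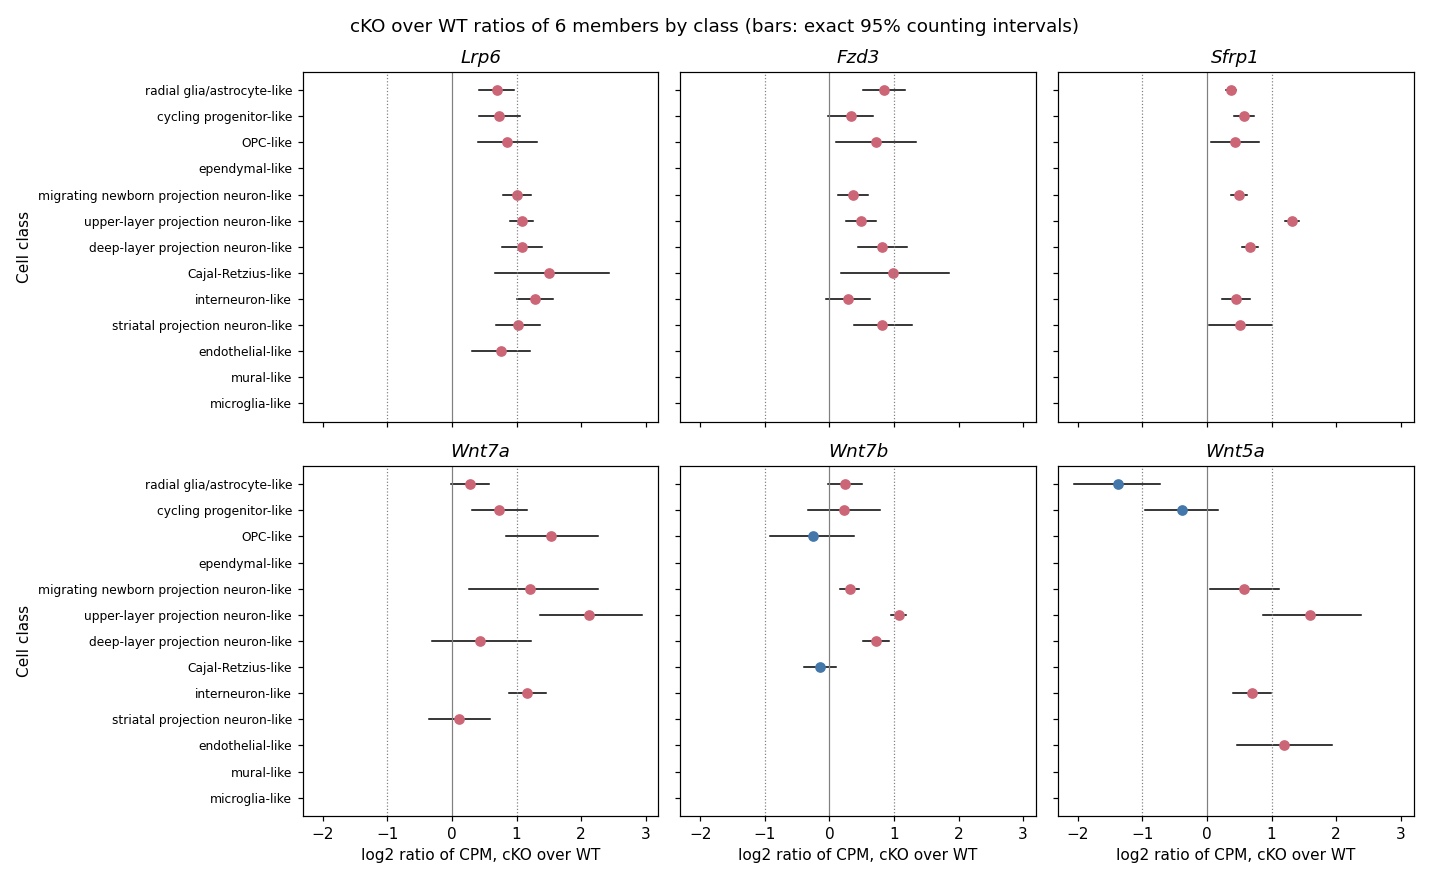
Log2 ratio of CPM (cKO over WT) of 6 members by class, with exact 95% counting intervals as bars; red points are higher and blue points lower in cKO, dotted lines mark 2-fold, and classes without a point had too few UMIs or cells. Lrp6, Fzd3, Sfrp1 and Wnt7a lie right of 0 in each class compared, while Wnt5a runs from -1.37 to 1.60.

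The R-spondins, which amplify Wnt signals by protecting the receptors from removal, were measured as Rspo1, Rspo2 and Rspo3. Rspo3 was highest in Cajal-Retzius-like cells, at 49.6 CPM in WT and 55.0 in cKO. In upper-layer-like cells it had 17.0 and 7.65 CPM, a log2 ratio of -1.15 (-1.50 to -0.81), and in migrating newborn-like cells 10.6 and 4.04 CPM, a ratio of -1.39 (-1.99 to -0.82). The 2 largest migrating newborn clusters were of similar size, an Eomes-led one (497 WT and 625 cKO cells) and a Sema3c-led one (455 and 646). In the Sema3c-led cluster Rspo3 had 25.9 CPM in WT and 8.08 in cKO. Rspo3 in radial glia/astrocyte-like cells had 3.93 CPM (19 UMIs) and 8.52 CPM (36 UMIs), a ratio of 1.12 (0.28 to 2.00), which was 0.21 (-1.26 to 1.49) when each library was clustered alone. Rspo2 was a gene of postmitotic projection neurons, with 29.3 and 15.6 CPM in deep-layer-like cells, a ratio of -0.91 (-1.31 to -0.52), and 21.004 and 18.3 CPM in upper-layer-like cells. Rspo1 had 19.2 CPM (19 UMIs) in WT Cajal-Retzius-like cells and 6.78 CPM (9 UMIs) in cKO, too few for a ratio.

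Of the secreted inhibitors, Sfrp1 (chr8:23411502-23449632) had the most UMIs of all members, 6749 in WT and 10796 in cKO. It was highest in radial glia/astrocyte-like cells, at 463 CPM (444 to 483) in WT and 600 CPM (577 to 624) in cKO. Ependymal-like cells followed with 343 and 389 CPM, deep-layer-like cells with 190 and 301, cycling progenitor-like cells with 150 and 222, and migrating newborn-like cells with 130 and 183. Upper-layer-like cells had 80.3 and 200 CPM, OPC-like cells 66.5 and 90.2, interneuron-like cells 61.2 and 83.8, striatal projection neuron-like cells 21.2 and 30.4, and Cajal-Retzius-like cells 20.3 and 15.1. Endothelial-like cells had 10.1 and 13.6 CPM, microglia-like cells 3.00 and 2.36, and mural-like cells none. The interval of the log2 ratio lay above 0 in 8 of 8 classes compared. The ratio was 1.32 (1.22 to 1.42) in upper-layer-like cells and from 0.37 to 0.67 in the 7 others. With a stricter cell filter the upper-layer value was 0.63 (0.06 to 1.24). All 3 upper-layer-like clusters were past 2-fold, at 1.69, 1.04 and 1.48. After thinning, 8.29% (6.82 to 9.95) of WT and 20.1% (17.8 to 22.6) of cKO upper-layer-like cells held a Sfrp1 UMI, against 0 of 52 microglia-like cells in WT (upper limit 6.85%) and 3.70% of 27 in cKO.

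Sfrp2, a close relative of Sfrp1, was highest in mural-like cells, at 94.1 CPM on 12 UMIs in WT and 293 CPM on 37 UMIs in cKO. In interneuron-like cells it had 30.4 CPM in WT and 10.9 in cKO, a log2 ratio of -1.47 (-1.94 to -1.02). The difference lay in the clusters led by Npas1 (57.3 and 9.07 CPM) and by Dlx6os1 (25.5 and 10.0 CPM), while the Maf and Lhx6 cluster had 15.4 and 12.9 CPM. In migrating newborn-like cells Sfrp2 was the higher one in cKO, at 9.84 and 16.5 CPM, a ratio of 0.75 (0.32 to 1.19), but the direction turned to -0.71 (-1.37 to -0.04) without doublet removal and to -0.86 (-2.63 to 0.60) with the stricter cell filter. Sfrp5 was nearly a radial glia/astrocyte-like gene, with 141 of its 154 WT UMIs and 95 of its 102 cKO UMIs in that class. Dkk3, a divergent dickkopf counted as an inhibitor here by its family name only, was highest in Cajal-Retzius-like cells. It had 186 CPM in WT and 182 in cKO, a ratio of -0.04 (-0.32 to 0.25). In cycling progenitor-like cells it had 19.7 and 63.3 CPM, a ratio of 1.68 (1.30 to 2.07), and in radial glia/astrocyte-like cells 81.9 and 146 CPM, a ratio of 0.83 (0.65 to 1.02). Wif1 and Dkk1, Dkk2 and Dkk4 were too rare for a ratio within a class.

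The co-receptor Lrp6 (chr6:134446476-134566965) was present in each of the 13 classes and had the lowest ratio of its highest to its median class among the members with 100 UMIs. In WT it ran from 15.2 CPM in Cajal-Retzius-like to 60.04 CPM in ependymal-like cells, and its highest class was 1.60 times the median class. In cKO it ran from 37.7 CPM in microglia-like to 82.6 CPM in endothelial-like cells. The level was higher in cKO, with an interval above 0, in 10 of 10 classes compared. Of the 4680 genes tested in these 10 classes, 289 (6.18%) did the same. Log2 ratios were 1.499 (0.66 to 2.43) in Cajal-Retzius-like, 1.29 (1.02 to 1.57) in interneuron-like, 1.08 (0.78 to 1.39) in deep-layer-like, 1.08 (0.91 to 1.25) in upper-layer-like, 1.02 (0.68 to 1.36) in striatal projection neuron-like and 1.00 (0.79 to 1.22) in migrating newborn-like cells. They were 0.86 in OPC-like, 0.76 in endothelial-like, 0.74 in cycling progenitor-like and 0.69 in radial glia/astrocyte-like cells. Of the 20 clusters with at least 50 Lrp6 UMIs, 19 had the higher level in cKO. Microglia-like cells, on 26 and 16 UMIs, had 38.9 CPM in WT and 37.7 in cKO. Lrp6 has a longest annotated transcript of 9368 bases, and over all kept cells the median log2 ratio of genes moved with transcript length, from -0.43 among the shortest genes (transcripts up to 2135 bases) to -0.11 among the longest. The part of length in the Lrp6 ratios was not tested. Lrp5, the other co-receptor, had 24.9 and 24.1 CPM in endothelial-like cells, a ratio of -0.05 (-0.84 to 0.70), and 22.5 and 23.6 CPM in microglia-like cells.

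Of the frizzled receptors, Fzd2, Fzd7 and Fzd8 were highest in glial and Fzd4 and Fzd6 in vascular cells. Fzd2 had 134 CPM in WT and 116 in cKO radial glia/astrocyte-like cells, 72.3 and 66.3 in cycling progenitor-like cells, 30.6 and 17.1 in migrating newborn-like cells and at most 2.20 in upper- and deep-layer-like cells. It had 0 UMIs in endothelial-like and mural-like cells of both libraries. Its log2 ratio was -1.55 (-2.53 to -0.66) in striatal projection neuron-like cells, from 45 UMIs (14.5 CPM) in WT to 14 UMIs (4.94 CPM) in cKO, and -0.84 (-1.14 to -0.54) in migrating newborn-like cells. Fzd7 had 14.9 and 18.2 CPM, Fzd8 38.5 and 44.5 and Fzd9 35.6 and 30.5 in radial glia/astrocyte-like cells. Fzd9 in OPC-like cells had 19.6 CPM in WT and 36.5 in cKO, a ratio of 0.90 (0.26 to 1.55).

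Fzd1 was higher in cKO in 6 of 6 classes compared. Its level was 14.9 and 36.7 CPM in radial glia/astrocyte-like cells, a log2 ratio of 1.30 (0.89 to 1.72) that was 0.57 (-0.01 to 1.12) when each library was clustered alone, 14.8 and 31.4 CPM in cycling progenitor-like cells, a ratio of 1.08 (0.61 to 1.57), and 4.28 and 12.3 CPM in interneuron-like cells, a ratio of 1.52 (0.79 to 2.31) that was 0.88 (0.34 to 1.43) with no filter on cells. Fzd6 in radial glia/astrocyte-like cells had 4.76 and 10.2 CPM, a ratio of 1.10 (0.33 to 1.89) that was 0.15 when each library was clustered alone. Fzd3, which acts in axon guidance and planar cell polarity, was broad, from 18.2 CPM in Cajal-Retzius-like to 65.4 CPM in ependymal-like cells among the WT neural classes. It was higher in cKO in 9 of 9 classes compared, with log2 ratios from 0.29 in interneuron-like to 0.99 in Cajal-Retzius-like cells, none past 2-fold, and with an interval above 0 in 7.

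**Figure D4:**
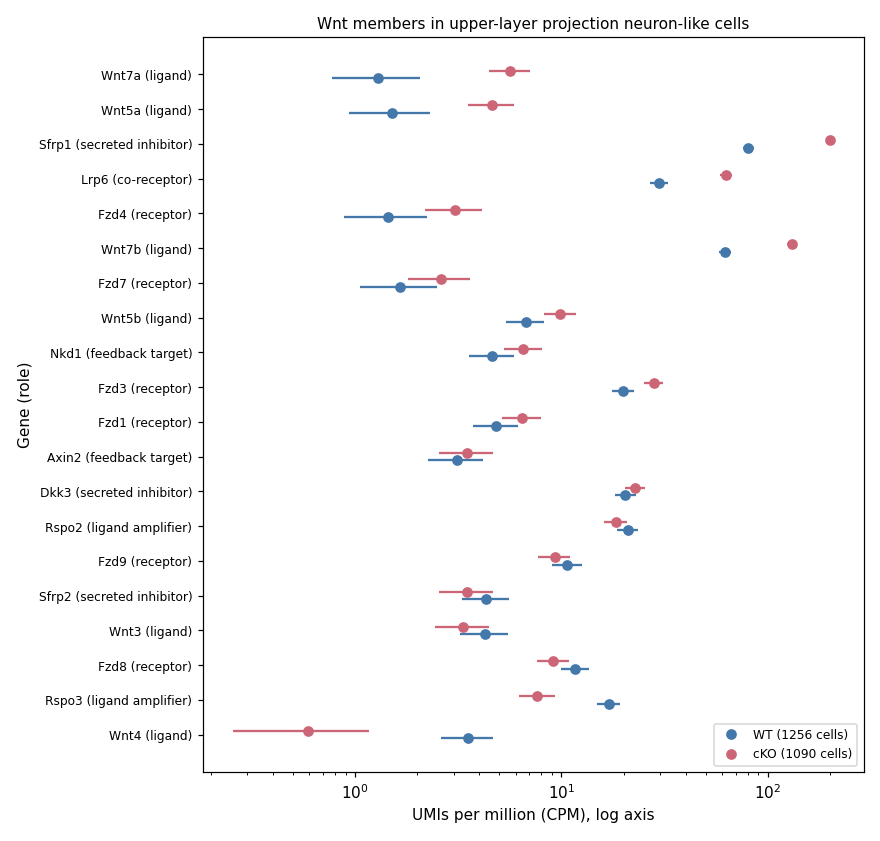
CPM (log axis) of the 20 members compared in upper-layer projection neuron-like cells of WT (1256 cells) and cKO (1090 cells), with exact 95% Poisson intervals as bars, ordered by ratio. Wnt7a, Wnt5a, Sfrp1, Lrp6, Fzd4 and Wnt7b at the top were past 2-fold higher in cKO, and Rspo3 and Wnt4 at the bottom past 2-fold lower.

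By class, upper-layer projection neuron-like cells had the most members past 2-fold, 6 higher and 2 lower of 20, where 3.80% and 17.3% of all 10992 genes tested were. The sixth of them by size was Wnt7b, and Fzd4 had 1.44 CPM in WT and 3.04 in cKO, a log2 ratio of 1.08 (0.27 to 1.93) on 20 and 41 UMIs. Apart from Wnt7b, not recomputed, 4 of 7 stayed past 2-fold with genes scaled over both libraries together. Under the stricter cell filter 4 of them gave a ratio, 3 stayed past 2-fold and 2 intervals left out 0. Migrating newborn-like cells had 3 higher (Wnt7a, Tcf7l2 and Lrp6) and 1 lower (Rspo3) of 19, with 4.29% and 14.3% of all genes. Rspo3 alone, 1 of these 4, stayed past 2-fold without doublet removal and when each library was clustered alone. The Lrp6 value was then 0.98 and 0.94, with intervals above 0. Radial glia/astrocyte-like cells had 3 higher (Fzd1, Rspo3 and Fzd6) and 1 lower (Wnt5a) of 22, with 3.11% and 10.2% of all genes. When each library was clustered alone, 0 of these 4 stayed past 2-fold and each interval held 0. Interneuron-like cells had 3 higher (Fzd1, Lrp6 and Wnt7a) and 1 lower (Sfrp2) of 11, with 5.08% and 12.3% of all genes. Cycling progenitor-like cells had 2 higher (Dkk3 and Fzd1) and none lower of 18, with 3.50% and 8.35% of all genes. Deep-layer-like cells had Lrp6 higher and Wnt4 lower of 14, with 3.74% and 13.2% of all genes. Striatal projection neuron-like cells had Lrp6 higher and Fzd2 lower of 5, with 4.98% and 12% of all genes. Of these 2, 1 stayed past 2-fold without doublet removal and when each library was clustered alone. Under the stricter cell filter 1 of the 2 intervals left out 0. Lrp6 in Cajal-Retzius-like cells was 1 of 7 members (2.95% of all genes higher and 5.12% lower), and Wnt7a in OPC-like cells 1 of 10 (3.88% and 9.71%). No member reached 50 UMIs in microglia-like or mural-like cells.

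Of the transcription factors, Tcf7l1 and Tcf7l2 were highest in radial glia/astrocyte-like cells and Lef1 in endothelial-like cells. The interval overlapped that of the next class in both libraries for Tcf7l1 and Tcf7l2, and in cKO for Lef1. Tcf7l2 had 87.3 CPM in WT and 68.6 in cKO radial glia/astrocyte-like cells, and 84.1 and 47.0 in OPC-like cells, where it is known to act in oligodendrocyte maturation, with a log2 ratio of -0.84 (-1.28 to -0.41). Over 14 alternatives Tcf7l2 kept this direction in OPC-like cells, with ratios from -2.06 to -0.60. In migrating newborn-like cells it had 4.84 and 10.0 CPM, a ratio of 1.05 (0.46 to 1.67). That ratio was -0.00086 (-1.13 to 1.19) at clustering resolution 2 and 0.19 (-0.74 to 1.16) without doublet removal. The Eomes-led cluster, whose leading genes include intermediate progenitor markers, held 15 and 81 of these UMIs, and the cluster led by Crym 16 and 18. Tcf7l1, which mostly represses Wnt targets, had 36.2 and 43.8 CPM in radial glia/astrocyte-like cells, a ratio of 0.27 (-0.03 to 0.58). Among the ordered classes outside the vessels, Lef1 was highest in cycling progenitor-like cells, at 18.5 CPM in WT and 21.2 in cKO. Cells left unnamed, which were not ordered, had 29.9 CPM in WT and 7.84 in cKO. The feedback target Axin2 had 22.5 and 31.0 CPM in radial glia/astrocyte-like cells, a ratio of 0.46 (0.08 to 0.84), 17.8 and 27.8 in cycling progenitor-like cells, a ratio of 0.64 (0.19 to 1.11), and from 2.89 to 5.78 CPM in the 4 WT projection neuron classes, the striatal one included. Nkd1, the other feedback target, had 23.2 and 25.1 CPM in radial glia/astrocyte-like cells, a ratio of 0.11 (-0.28 to 0.51). In cycling progenitor-like cells it had 35.8 and 27.8 CPM, a ratio of -0.37 (-0.76 to 0.02).

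**Figure D5:**
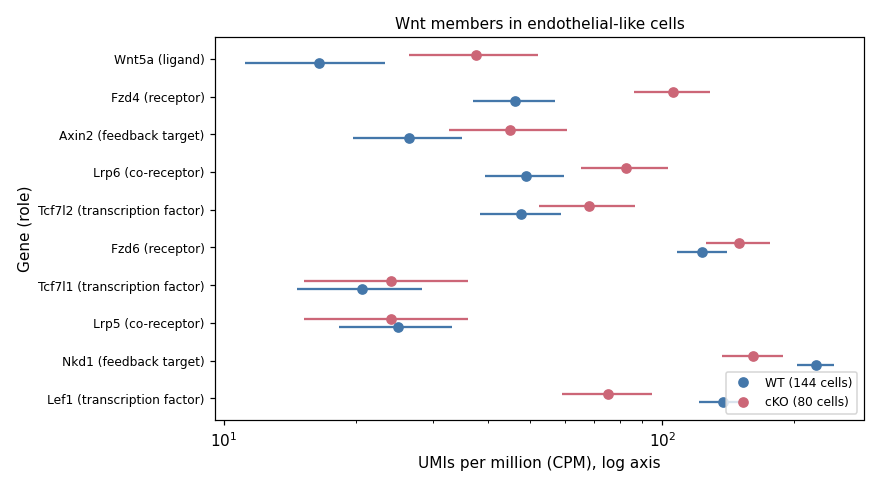
CPM (log axis) of the 10 members compared in endothelial-like cells of WT (144 cells) and cKO (80 cells), with exact 95% Poisson intervals as bars, ordered by ratio. Wnt5a and Fzd4 were past 2-fold higher in cKO, Wnt5a not without the cells above 4 times the median UMIs (0.30), and the intervals of Lef1 and Nkd1 were lower in cKO without overlap.

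Brain endothelial cells are the receiving side of Wnt7a and Wnt7b, through Fzd4 and other receptors. In endothelial-like cells 2 of 10 members were past 2-fold higher and none lower, where 5.47% and 12.7% of 6767 genes were. Fzd4 (chr7:89404355-89413134) had 46.1 CPM (87 UMIs) in WT and 106 CPM (101 UMIs) in cKO, a log2 ratio of 1.20 (0.77 to 1.63), and Wnt5a was the other. Without the cells above 4 times the median UMIs Fzd4 stayed past 2-fold and Wnt5a had 0.30 (-0.83 to 1.41). Fzd6 had 124 and 150 CPM, a ratio of 0.28 (-0.03 to 0.58), Lrp6 48.8 and 82.6 CPM and Tcf7l2 47.7 and 68.0 CPM, a ratio of 0.51 (0.03 to 0.99). Lef1 (chr3:131110471-131224356) had 137 and 75.3 CPM, a ratio of -0.87 (-1.26 to -0.48). Nkd1 (chr8:88521354-88594884) had 224 and 161 CPM, a ratio of -0.48 (-0.75 to -0.21), while Axin2 had 26.5 and 45.0 CPM, a ratio of 0.76 (0.14 to 1.38). The members thus differed in both directions within this class. The ratios of Fzd6, Lrp6, Tcf7l2, Lef1 and Axin2 in this class were not recomputed without the cells above 4 times the median UMIs. The 4 endothelial-like clusters differed among themselves. That led by Slc38a5 and Aplnr held 15 WT and 2 cKO cells, at a median of 47609 UMIs. In the largest (52 WT and 37 cKO cells) Fzd4 had 46.0 and 122 CPM, Lef1 160 and 86.8, and Nkd1 308 and 174. In the cluster led by Flt1 (30 and 23 cells) Fzd4 had 34.4 and 35.9 CPM on 13 and 5 UMIs.

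Summed over all kept cells, where fewer cells of a type and less RNA per cell cannot be told apart, none of the 33 members with 50 UMIs was past 2-fold higher in cKO and 2 were lower, with 2.69% and 19.9% of all 14672 genes. These were Lef1, from 738 UMIs in WT to 299 in cKO (log2 ratio -1.28, -1.47 to -1.08), and Dkk2, from 59 to 10 (-2.53). In WT most of the Lef1 UMIs were in endothelial-like cells (259), of which there were fewer in cKO, and in cells left unnamed (198). In cKO these held 72 and 34 of the 299, and cycling progenitor-like cells held 71. Wnt7b, Lrp6 and Sfrp1 had all-cell ratios of 0.87, 0.94 and 0.71.

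Outside the rule, 51 further genes of the pathway were listed by role. Their ratios were not recomputed under other cell filters or clusterings. In upper-layer-like cells 6 of 35 tested were past 2-fold higher and 1 lower, where 3.80% and 17.3% of all genes were. In radial glia/astrocyte-like cells 5 of 36 were higher and none lower, with 3.11% and 10.2% of all genes, and in endothelial-like cells 5 of 22 higher and 2 lower, with 5.47% and 12.7% of all genes. Kremen1, a receptor for dickkopf proteins, had 0.938 CPM in WT and 6.01 in cKO upper-layer-like cells, and 2.03 and 9.61 in migrating newborn-like cells. Tle1, a co-repressor of Tcf/Lef factors, had 89.1 and 407 CPM in endothelial-like cells, a log2 ratio of 2.19 (1.93 to 2.46), and 22.3 and 52.0 in Cajal-Retzius-like cells. Ccnd1, a cell-cycle gene and Wnt target, had 391 and 100 CPM in endothelial-like cells, a ratio of -1.96 (-2.28 to -1.65). Its level was also the lower one in cKO microglia-like (115 and 21.2 CPM), OPC-like (326 and 147 CPM) and cycling progenitor-like cells (143 and 85.7 CPM), with ratios of -2.44, -1.15 and -0.74 and intervals below 0. It was the higher one in upper-layer-like (3.32 and 7.72 CPM), interneuron-like (4.48 and 10.55 CPM) and migrating newborn-like cells (9.68 and 13.4 CPM), with intervals above 0, and in radial glia/astrocyte-like cells the ratio was -0.07 (-0.25 to 0.10). Wls, which carries Wnt ligands to the cell surface, had 23.2 and 4.47 CPM in OPC-like cells, a ratio of -2.38 (-3.90 to -1.14), 52.0 and 23.2 in interneuron-like cells, 18.0 and 6.57 in cycling progenitor-like cells and 3.18 and 1.34 in upper-layer-like cells. It was the higher one in cKO radial glia/astrocyte-like cells, at 21.1 and 29.3 CPM, a ratio of 0.48 (0.09 to 0.87). The interval held 0 in endothelial-like (0.15), mural-like (0.41) and microglia-like cells (-0.11). Axin1, the scaffold of the β-catenin destruction complex, had 27.3 and 85.9 CPM in Cajal-Retzius-like cells and 21.5 and 62.1 CPM in striatal projection neuron-like cells. Of the membrane ligases and feedback genes, Znrf3 in OPC-like cells had 9.28 and 41.7 CPM, and Nkd2 had 4.48 and 11.9 in interneuron-like cells. Sp5, a direct target, had 14.9 and 34.3 CPM in radial glia/astrocyte-like cells, a ratio of 1.20 (0.79 to 1.63). It was also past 2-fold higher in endothelial-like cells, at 23.3 and 54.4 CPM, a ratio of 1.22 (0.61 to 1.83), and in cycling progenitor-like cells, at 23.2 and 49.3 CPM, a ratio of 1.09 (0.71 to 1.47). Myc, another target, was higher in cKO in each class compared, past 2-fold in OPC-like (1.74), striatal projection neuron-like (1.33) and migrating newborn-like cells (1.27). Tnfrsf19, also a target, was past 2-fold lower in endothelial-like (83.8 and 41.8 CPM) and striatal projection neuron-like cells (15.4 and 7.41 CPM). Its interval lay below 0 in OPC-like and above 0 in cycling progenitor-like, migrating newborn-like and upper-layer-like cells.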

How the data were processed

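Telencephalic cells of 1 WT and 1 cKO library were captured by droplet 3′ single-cell sequencing. The deposited files hold UMI counts per gene and barcode, filtered to cell barcodes by the authors. Submitters' notes name STAR, Cell Ranger 2, Seurat and mm9, whereas the matrix header gives software version 3.0.1, so the version is uncertain. The libraries held 10715 and 9198 barcodes with 69554624 and 67448785 UMIs, of which 19 barcodes were shared. Gene positions are those of GENCODE M21 (GRCm38), matched by gene ID for 27645 of 27998 genes and all 49 members. Strand-specific counting is not stated in the sources used here, and exons of 10 members (Axin2, Fzd5, Fzd6, Lef1, Rspo3, Sfrp2, Tcf7l1, Wnt5a, Wnt7b and Wnt11) overlap a gene on the opposite strand.

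Cells with at least 500 genes and at most 10% mitochondrial UMIs were kept. Cells with a Scrublet doublet score above 0.2 (scanpy 1.11.5) were removed, 200 from WT and 151 from cKO, since the automatic threshold marked 0 cKO cells. Clusters were made on 2000 variable genes, leaving out the Wnt genes, scaled within each library (30 components, 15 neighbours, Leiden resolution 1), and non-neural clusters were split once more, a step chosen after seeing the data. A cluster was named from at least 3 detected markers. UMIs were summed per class and library. Levels have exact Poisson intervals and ratios exact conditional binomial intervals (scipy 1.17.1). Shares have Clopper-Pearson intervals after thinning to 1000 UMIs. Ratio intervals were tested on simulated data. TMM factors came from edgeR 4.0.16 (R 4.3.3) and served as an alternative scaling only.

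The members and lists were chosen with earlier results of these data known. Named genes were those with 100 UMIs by their highest class, and by library those with 50 UMIs in a class that were past 2-fold with an interval leaving out 0, at most 5 per direction and class, and at most 3 per class for other pathway genes. Wnt7b in upper-layer-like cells and cluster values fall outside that rule and were added after seeing the data. No count model was fitted, as each genotype had 1 library. The deposited sources used here do not say how many mice entered a library.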

Additional observations from a re-analysis of the deposited data

Results flagged for a closer look

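In 6 of the 25 members compared in at least 2 classes the counting interval of the ratio lay above 0 in at least 1 class and below 0 in another. Of the 11484 genes compared in at least 2 classes, 17.3% did the same. The difference between the classes was not tested, since each class has 1 library per genotype. For 0 of the 6 did both intervals leave out 0 in every alternative that gave both ratios. They did so in 12 of 13 alternatives for Wnt5a, 10 of 14 for Sfrp2, 9 of 14 for Tcf7l2, 9 of 13 for Rspo3, 8 of 12 for Nkd1 and 4 of 14 for Fzd8. These counts are upper limits. With TMM factors, with the class median of all genes subtracted and with equal weights for clusters, the interval was not recomputed. It stayed that of the main scaling, so these alternatives could fail only by a change of sign. Wnt5a had a log2 ratio of cKO over WT of 1.60 (0.87 to 2.39) in upper-layer projection neuron-like cells, from 1.52 to 4.60 CPM, and of -1.37 (-2.06 to -0.73) in radial glia/astrocyte-like cells, from 16.5 to 6.39 CPM, which was -0.59 (-1.53 to 0.24) when each library was clustered alone. Rspo3 had 1.12 (0.28 to 2.00) in radial glia/astrocyte-like cells, 0.21 (-1.26 to 1.49) when each library was clustered alone, and -1.39 (-1.99 to -0.82) in migrating newborn projection neuron-like cells. Sfrp2 had 0.75 (0.32 to 1.19) in migrating newborn-like cells, which turned to -0.71 (-1.37 to -0.04) without doublet removal, and -1.47 (-1.94 to -1.02) in interneuron-like cells. Tcf7l2 had 1.05 (0.46 to 1.67) in migrating newborn-like cells, -0.00086 (-1.13 to 1.19) at clustering resolution 2, and -0.84 (-1.28 to -0.41) in OPC-like cells. Nkd1 had 0.50 (0.02 to 0.99) in upper-layer-like cells, 0.37 (-0.07 to 0.81) at that resolution, and -0.48 (-0.75 to -0.21) in endothelial-like cells. Fzd8, on levels of 8.12 to 12.8 CPM, had 0.66 (0.18 to 1.15) in migrating newborn-like cells, 0.33 (-0.22 to 0.90) at that resolution, and -0.36 (-0.71 to -0.01) in upper-layer-like cells.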

How the results depend on the processing

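Precision was limited by depth and by 1 library per genotype. No paired analysis was possible because each genotype has 1 library, and no replicate could be left out. Of 17 alternatives, 3 moved the member and class pairs past 2-fold, 19 higher and 7 lower in cKO, by over 1.5 times. These were at least 1000 genes and at most 5% mitochondrial UMIs per cell (7 higher and 3 lower, with no deep-layer class), a minimum of 200 UMIs (10 and 2) and 1.5-fold (38 and 11). Fewer pairs gave a ratio in the first 2, so their lower counts do not show a lower share. In upper-layer-like cells 4 and 10 members were compared, against 20. In migrating newborn-like cells these were 4 and 8, against 19, and in radial glia/astrocyte-like cells 19 and 16, against 22. With the stricter cell filter 9 members, not 20 of 28, had the same highest class in both libraries. The number of members put in order under that filter is not given here. Under the other 14 the pairs lay between 14 and 21 higher and 5 and 10 lower. The members' median log2 ratio ran over the alternatives from -0.043 (classes from marker scores) to 0.70 (minimum of 200 UMIs) in deep-layer-like cells, against 0.28, and from -0.05 (4 members, stricter cell filter) to 0.74 in migrating newborn-like cells, against 0.57. It ran from 0.18 (no doublet removal) to 0.66 in upper-layer-like cells, against 0.45, from 0.17 to 0.48 in radial glia/astrocyte-like cells, against 0.28, from 0.21 to 0.46 in cycling progenitor-like cells, against 0.29, from 0.30 to 1.11 (5 members, stricter cell filter) in interneuron-like cells, against 0.45, and from 0.22 to 1.02 (1 member, minimum of 200 UMIs) in striatal projection neuron-like cells, against 0.52. The causes were not tested. Of the 29 named ratios, that of Tcf7l2 in migrating newborn-like cells changed sign (-0.00086 at resolution 2) and 28 kept their direction in each alternative that gave a value. Of 6 further ratios flagged above, Sfrp2 (-0.86 with the stricter cell filter, -0.71 without doublet removal and -0.036 with automatic doublet thresholds) and Fzd8 (-0.18 with the stricter filter) in migrating newborn-like cells changed sign. Where classes were defined otherwise, intervals came to hold 0 for Fzd1, Fzd6, Rspo3 and Wnt5a in radial glia/astrocyte-like, Wnt4 in upper-layer-like, and Wnt7a and Tcf7l2 in migrating newborn-like cells. Automatic doublet thresholds, equal weights for clusters and leaving out the 179 WT and 121 cKO cells above 4 times the median UMIs were chosen after seeing the data.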
